A study of Homo sapiens with 6 samples.

Results

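Integrins and other matrix receptors were examined as 37 genes among the 39739 gene rows of the deposited RPKM files (reads per kilobase of gene per 1000000 reads assigned to genes). The 37 comprised 18 integrin α subunits, 8 integrin β subunits and 11 other receptors, and they were chosen by name as receptor genes, with no level or fold change in the rule, though with earlier results of these data known. All 37 are protein-coding genes in GENCODE release 29 and all were listed in the files. HGC27 is a human gastric cancer cell line. RNA-seq was available for 3 libraries of HGC27-*FN1* 3′-UTR cells, in which the 3′-UTR of *FN1* (the gene of fibronectin) was stably overexpressed by lentivirus, and for 3 libraries of HGC27-control cells. Per the methods, infected cells were kept as a puromycin-resistant population, so the overexpressing group is a single selected line. The labels give no vector for the control cells and do not say whether the 3 libraries of a group came from separate cultures. The p-values below therefore measure only the spread between these libraries, which may be technical.

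Integrins are heterodimers of an α and a β subunit that connect the extracellular matrix to the actin cytoskeleton, and the pairing decides which ligand is bound. *ITGB1* encodes the β subunit with the most partners, among them the α subunits of fibronectin, laminin and collagen receptors. Syndecans, dystroglycan, the discoidin domain receptors and CD44 bind matrix without being integrins. Changes in this receptor set accompany adhesion and movement of carcinoma cells.

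The libraries held 16357085 to 37037532 reads in genes, and 3 reads corresponded to 0.081 to 0.1834 reads per 1000000, the level that a count of 0 still allows. Such limits cover counting error only. *FN1* itself measured 0.777, 0.745 and 0.819 RPKM in HGC27-*FN1* 3′-UTR cells and 0.543, 0.474 and 0.532 in HGC27-control cells. The groups did not overlap, and the log2 fold change was 0.52 (SE 0.108, limma adjusted p = 0.0292). Without any one library this adjusted p was 0.0614 to 0.0982. Because an *FN1* row counts all exons, it does not separate the inserted 3′-UTR from the endogenous transcript. Among markers of cell types, 6 of 7 epithelial genes were upregulated, *KRT19* and *ELF3* of these reaching the minimum in HGC27-*FN1* 3′-UTR libraries alone. The summed level of the 7 was 18.7 to 27.7 RPKM against 2.96 to 3.32 in control libraries. Of 6 fibroblast markers 3 were upregulated, with sums of 134 to 137 against 94.6 to 105 RPKM led by *COL3A1*. In bulk libraries, more cells of one kind and more RNA per cell cannot be told apart.

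Of the 37 receptor genes, 27 reached 0.1 RPKM in at least 3 libraries and were tested, and none of the 27 did so through 1 group alone. The 10 below that minimum were *ITGA8*, *ITGA9*, *ITGA10*, *ITGA11*, *ITGAL*, *ITGAM*, *ITGAX*, *ITGB6*, *ITGB8* and *CD36*. At a limma adjusted p under 0.05, 6 of the 27 were upregulated and 4 downregulated. This was 37.0% of the tested receptors, beside 13.0% of all 23299 tested genes (5.62% upward and 7.36% downward). With 1 library left out the upward count stayed at 6, while the downward count was 0 to 3. It was 0 without HGC27-*FN1* 3′-UTR replicate 1 or control replicate 2 (5 lower in each at an unadjusted limma p under 0.05, and 6 by voom on all 6 libraries) and 1 without HGC27-*FN1* 3′-UTR replicate 2, control replicate 1 or control replicate 3. Among genes averaging at least 1 RPKM, 9 of 18 receptors passed, beside 17.3% of 14652 genes. Apart from *ITGB2* (ratio of means 4.77), the log2 fold changes of the tested receptors lay between -0.64 and 0.54. *CD36* (ratio of means 7.10) was too low to be tested. Only *ITGB2* of the 27 met the study's criterion for differentially expressed genes, an absolute log2 fold change above 1 with an unadjusted limma p under 0.05. That criterion held for 1.65% of all tested genes upward and 0.815% downward. No receptor met it downward (0 of 27 also by voom), although 5 were lower at an unadjusted p under 0.05. For 20 of the 27 receptors (12 upward and 8 downward) the ranges of both groups were separate, beside 36.0% of all tested genes. The median log2 fold change was 0.10 for the receptors and -0.04 for all tested genes.

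**Figure D1:**
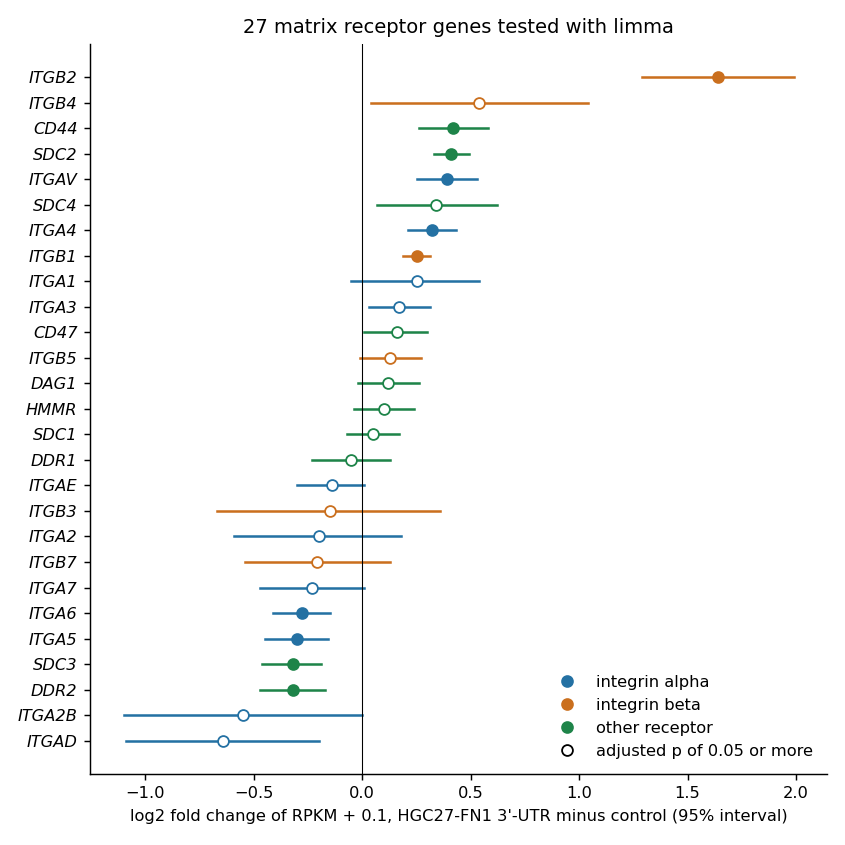
Log2 fold change of RPKM + 0.1 (horizontal axis, HGC27-*FN1* 3′-UTR minus control) of each of the 27 tested receptor genes, with its unadjusted 95% interval; filled points have a limma adjusted p under 0.05. *ITGB2* stands alone at 1.64, the other filled points lie between -0.32 and 0.42, and open points whose interval leaves 0 did not pass the adjustment.

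Among β subunits, *ITGB1* and *ITGB2* were upregulated and no tested member was downregulated at the adjusted threshold. *ITGB1* (chr10:32900319-33005792, GRCh38) encodes the common partner of most matrix-binding α subunits and had the highest level of all 37 genes. It measured 51.0, 50.6 and 50.2 RPKM in HGC27-*FN1* 3′-UTR cells and 42.7, 42.0 and 42.7 RPKM in control cells. The groups did not overlap, and the spread within each was small. The rise was 1.19-fold (log2 fold change 0.25, SE 0.024, limma adjusted p = 0.00308). The pseudogene *ITGB1P1*, a near copy to which reads can be misassigned, held 386 and 452 reads per group, beside 21254 and 23008 for *ITGB1*.

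The next β subunit by level was *ITGB5*, a partner of the αV subunit, which averaged 3.89 ± 0.0265 RPKM with the *FN1* 3′-UTR and 3.54 ± 0.225 RPKM in control cells (SD, n = 3). Its log2 fold change was 0.13, with a 95% interval from -0.01 to 0.27. *ITGB4*, whose product pairs with α6 in hemidesmosomes of epithelia, measured 0.252 ± 0.0328 and 0.144 ± 0.0385 RPKM (log2 fold change 0.54, limma adjusted p = 0.143). Its groups did not overlap, and the epithelial markers given above were higher in the same libraries, a link that was not tested. *ITGB3* and *ITGB7* had overlapping groups, and both share exon sequence with another gene. *ITGB3* shares 51.6% of its exon bases with *RP11-290H9.2* on the same strand, and *ITGB7* shares 42.1% with *ZNF740* on the opposite strand, so their counts are uncertain. No other tested receptor shared more than 6.41% with any 1 gene, the value of *ITGAE* with *GSG2* on the opposite strand. *ITGB6* had 9 and 3 reads in all, and *ITGB8* had 85 and 95, which gives no basis for a difference.

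**Figure D2:**
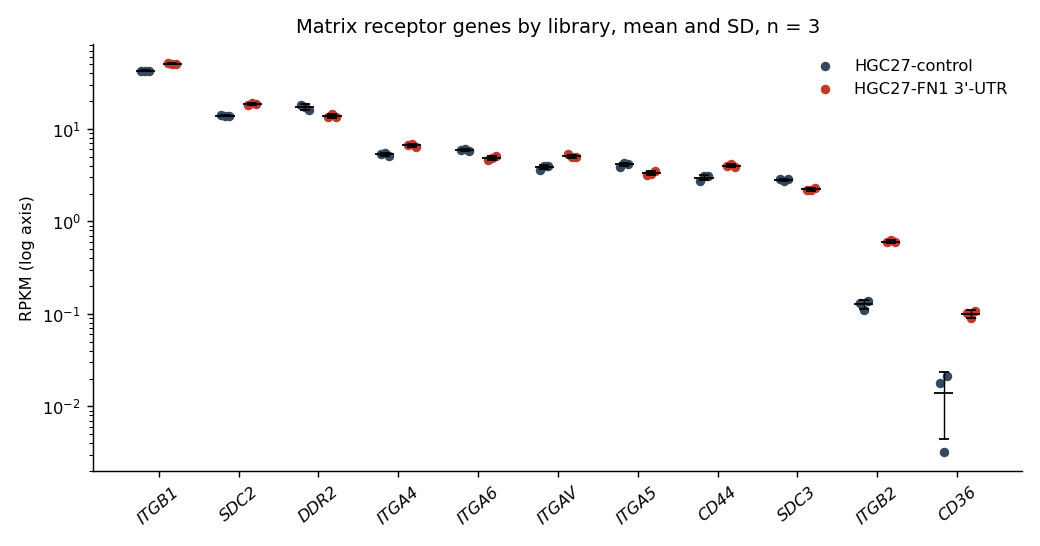
RPKM of each library (log axis) for the 10 receptor genes with an adjusted p under 0.05 and for *CD36*, which was too low to be tested; points are libraries, and bars are the mean and SD of 3. The 2 groups are apart for every gene shown, and *ITGB1* lies highest at 42.4 and 50.6 RPKM.

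*ITGB2* (chr21:44885953-44931989) encodes the β subunit of leukocyte integrins and showed the largest change. It measured 0.594, 0.626 and 0.594 RPKM in HGC27-*FN1* 3′-UTR cells and 0.132, 0.11 and 0.139 RPKM in control cells. Every library of the first group was above every control library, on 288 against 78 reads. The ratio of means was 4.77, and the log2 fold change was 1.64 on the log2(RPKM + 0.1) scale (SE 0.144, limma adjusted p = 0.00235). The fitted size depends on the pseudocount at this level: it was 0.51 with 1 RPKM added and 2.24 by voom on recovered reads. With this rise *ITGB2* moved from the sixth to the third level among β subunits.

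None of the α subunits that pair with *ITGB2* in leukocytes was upregulated, and 3 of these 4 were too low to be tested. *ITGAL*, *ITGAM* and *ITGAX* had 1, 9 and 3 reads summed over HGC27-*FN1* 3′-UTR libraries and 4, 13 and 3 reads over control libraries, all below the minimum. *ITGAD* was lower in every HGC27-*FN1* 3′-UTR library, at 0.161 ± 0.024 against 0.308 ± 0.0504 RPKM, with a log2 fold change of -0.64 (limma adjusted p = 0.0708). *ITGAE*, the α subunit that pairs with β7 and binds E-cadherin, measured 1.89 ± 0.0974 and 2.10 ± 0.0349 RPKM (limma adjusted p = 0.202). The 7 listed leukocyte markers summed to 0.638 to 0.815 RPKM in HGC27-*FN1* 3′-UTR libraries and 0.814 to 1.03 in control libraries. Of these, 5 were below the minimum in all libraries, *MPO* was at 0, and neither of the 2 tested markers passed. *GP1BA*, the one platelet marker listed in the files, summed to 1.64 to 1.75 and 1.54 to 1.89 RPKM.

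Several receptors overlap a tested gene on the opposite strand. Of these genes 3 passed a limma adjusted p under 0.05, each upward with an upregulated receptor. The others did not pass, among them *HMMR-AS1* (limma adjusted p = 0.862), *ZNF740* (0.36) and *AC078883.3* over *ITGA6* (0.0971). Of all tested genes 13.0% passed. *ITGB2-AS1* shares 303 exon bases with *ITGB2* (4.46% of the exon bases of *ITGB2*). It measured 0.677, 0.605 and 0.632 RPKM in HGC27-*FN1* 3′-UTR cells and 0.11, 0.0932 and 0.177 RPKM in control cells. Its log2 fold change was 1.72 (limma adjusted p = 0.00447), close in size to that of *ITGB2*. *AC017101.10*, which shares 203 exon bases with *ITGAV*, had a log2 fold change of 0.74 (limma adjusted p = 0.0176). *RP1-68D18.4*, which shares 84 exon bases with *CD44*, had one of 0.64 (limma adjusted p = 0.0125). The library kit was strand-specific, but the sources used here do not say whether counting used strand. Reads within the shared bases can therefore not be assigned to one gene of a pair. For *ITGAV* and *CD44* the shared bases were 2.47% and 0.835% of the exon bases of the receptor gene. They are a larger part of the opposite-strand genes, which are shorter. *ITGB2-AS1* has 2438 bases, *AC017101.10* has 571 and *RP1-68D18.4* has 587, so the rises of these genes are the less certain.

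**Figure D3:**
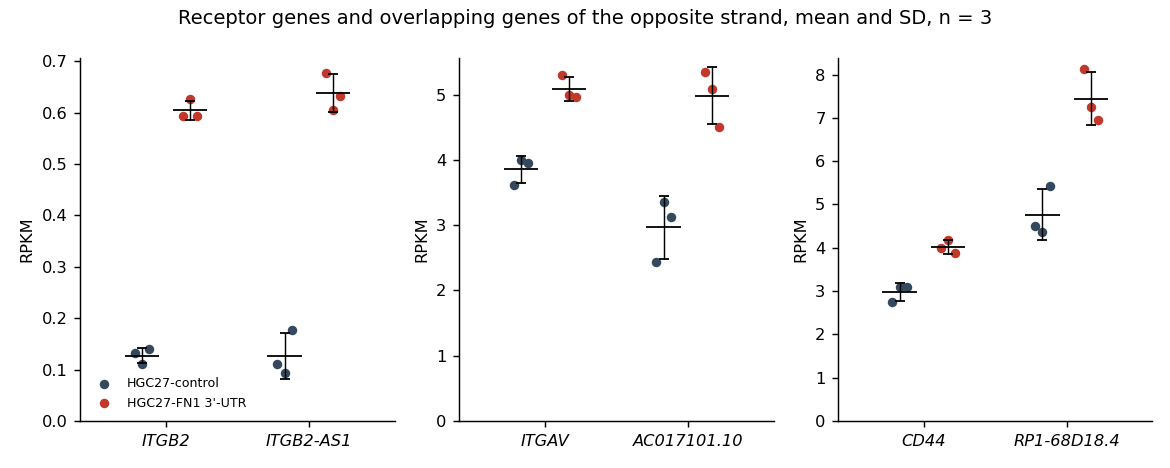
RPKM of each library for *ITGB2*, *ITGAV* and *CD44* and for the gene that overlaps each on the opposite strand; points are libraries, and bars are the mean and SD of 3. The pairs were picked because the opposite-strand gene had a limma adjusted p under 0.05. Both genes of each pair are higher in all 3 HGC27-*FN1* 3′-UTR libraries, and *ITGB2-AS1* lies at about the level of *ITGB2*.

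The α subunits moved in both directions. Of 11 tested, *ITGA4* and *ITGAV* were upregulated, *ITGA5* and *ITGA6* were downregulated, and 7 did not pass. *ITGAV* (chr2:186590065-186680901) encodes αV, the shared chain of receptors for vitronectin, fibronectin and latent TGF-β. It measured 5.30, 4.99 and 4.96 RPKM in HGC27-*FN1* 3′-UTR cells and 3.61, 4.0 and 3.95 RPKM in control cells. The groups did not overlap, and the ratio of means was 1.32 (log2 fold change 0.39, SE 0.058, limma adjusted p = 0.0108). *ITGA4*, whose product binds VCAM1 and an alternatively spliced segment of fibronectin, measured 6.72, 6.83 and 6.41 RPKM against 5.36, 5.45 and 5.12 RPKM. Its groups were again apart, with a ratio of 1.25 (log2 fold change 0.32, SE 0.046, limma adjusted p = 0.01).

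*ITGA5* encodes α5, the chain of the classical fibronectin receptor, and went the other way. It measured 3.16, 3.27 and 3.5 RPKM in HGC27-*FN1* 3′-UTR cells and 3.91, 4.27 and 4.18 RPKM in control cells (log2 fold change -0.30, SE 0.061, limma adjusted p = 0.0253). All libraries of the first group were below all control libraries. *ITGA6*, which encodes the α6 chain of laminin receptors, measured 4.59, 4.79 and 5.15 RPKM against 5.85, 6.07 and 5.79 RPKM (log2 fold change -0.28, SE 0.054, limma adjusted p = 0.0226). It too had no overlap between groups. The calls of both falls depended on single libraries. The adjusted p of *ITGA5* was 0.0397 to 0.0945 when 1 library was left out, and it was above 0.05 without HGC27-*FN1* 3′-UTR replicate 1 or 2 or control replicate 2 or 3. That of *ITGA6* was 0.0307 to 0.0874, and the call was kept only without HGC27-*FN1* 3′-UTR replicate 3.

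The other fibronectin-type α genes were low. *ITGA2B*, the platelet receptor chain, had 58 and 128 reads and a log2 fold change of -0.55 (limma adjusted p = 0.171), and *ITGA8* had 2 reads in each group. Of the laminin-type α genes, *ITGA3* measured 2.25 ± 0.0364 and 1.99 ± 0.0633 RPKM (log2 fold change 0.17, limma adjusted p = 0.108). *ITGA7* measured 0.813 ± 0.0573 and 0.969 ± 0.0588 RPKM (log2 fold change -0.23, 95% interval -0.47 to 0.01). Neither passed, although the groups of each did not overlap. Of the collagen-type α genes, *ITGA1* and *ITGA2* were tested and did not pass, with log2 fold changes of 0.25 (95% interval -0.05 to 0.54) and -0.20 (-0.59 to 0.18). *ITGA10* and *ITGA11* had at most 28 reads per group. *ITGA9*, the relative of *ITGA4*, had 33 and 87 reads, and its groups overlapped.

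RPKM is a per-length scale, so levels of the subunit genes can be added and compared. The 18 α genes summed to 26.3, 26.2 and 26.3 RPKM in HGC27-*FN1* 3′-UTR cells and 25.2, 26.8 and 25.7 RPKM in control cells. The sum did not differ beyond the spread (ratio 1.01, two-sided exact permutation p = 0.7). The 8 β genes summed to 56.5, 56.0 and 55.7 RPKM against 47.1, 46.7 and 47.3 RPKM, a ratio of 1.19 with p = 0.1 in the exact permutation test, the smallest value that 3 against 3 libraries can give. Within the β sum, *ITGB1* held 90.3 ± 0.157% and 90.3 ± 0.49% (SD, n = 3). *ITGB2* held 1.08 ± 0.0351% and 0.270 ± 0.0309%.

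The α sum was nearly level while its makeup differed between groups. In control libraries *ITGA6* had the largest share, 22.8 ± 0.371%, followed by *ITGA4* with 20.5 ± 0.692%. In HGC27-*FN1* 3′-UTR libraries *ITGA4* led with 25.3 ± 0.849%, followed by *ITGAV* with 19.4 ± 0.708% and *ITGA6* with 18.5 ± 1.07%. *ITGAV* rose above its share of 14.9 ± 0.523% in control libraries, whereas *ITGA5* went from 15.9 ± 0.369% to 12.6 ± 0.658%. The shares of *ITGAV* and *ITGA6* in the HGC27-*FN1* 3′-UTR libraries lie within each other's spread. None of these 4 shares overlapped between groups, but each exact permutation p was 0.1, the smallest this design allows. It was 0.162 after Benjamini-Hochberg adjustment over 26 subunits. Shares of many other subunits were apart with the same p, among them the low genes *ITGA9*, *ITGA2B* and *ITGB3*. Separation therefore does not mark out the 4. Shares of one sum are tied to each other, so these are not separate results.

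**Figure D4:**
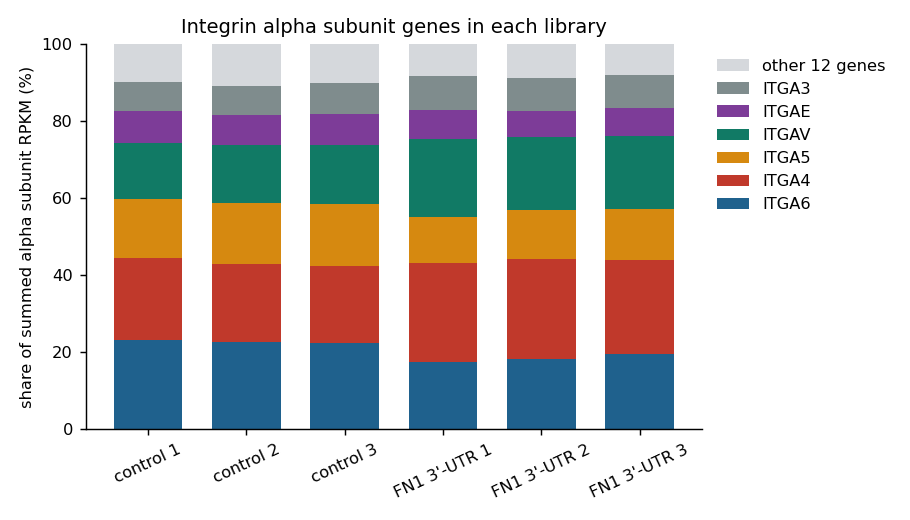
Share of each integrin α subunit gene in the summed α subunit RPKM of a library (vertical axis, percent), for 3 control and 3 HGC27-*FN1* 3′-UTR libraries. *ITGA4* goes from 20.5% to 25.3% and *ITGAV* from 14.9% to 19.4%, while *ITGA6* goes from 22.8% to 18.5% and *ITGA5* from 15.9% to 12.6%.

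The syndecans, membrane proteoglycans that bind matrix through heparan sulphate chains, did not move together. *SDC2* was upregulated, with 18.1, 19.1 and 18.4 RPKM in HGC27-*FN1* 3′-UTR cells and 14.2, 13.8 and 13.7 RPKM in control cells. The groups were far apart beside their spread (ratio 1.33, log2 fold change 0.41, SE 0.034, limma adjusted p = 0.00182). *SDC3* was downregulated, with 2.21, 2.16 and 2.31 RPKM against 2.86, 2.71 and 2.86 RPKM (log2 fold change -0.32, SE 0.057, limma adjusted p = 0.0183). Its adjusted p was 0.0418 to 0.0643 with 1 library left out, and the call was kept only without HGC27-*FN1* 3′-UTR replicate 3. *SDC1*, the most abundant syndecan gene, measured 21.3, 19.4 and 21.1 RPKM against 18.9, 20.2 and 20.5 RPKM. Its groups overlapped (log2 fold change 0.05, 95% interval -0.07 to 0.17). *SDC4*, a focal adhesion syndecan, measured 3.83 ± 0.393 and 3.01 ± 0.393 RPKM, also with overlap (limma adjusted p = 0.104). *DAG1*, which encodes the laminin receptor dystroglycan, measured 8.90, 8.64 and 9.43 RPKM against 7.75, 8.43 and 8.63 RPKM, and did not pass (log2 fold change 0.12, limma adjusted p = 0.217).

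The collagen-binding receptor tyrosine kinases of the discoidin domain family differed in level. *DDR2* was downregulated, with 13.3, 14.5 and 13.4 RPKM in HGC27-*FN1* 3′-UTR cells and 18.3, 17.4 and 15.9 RPKM in control cells. The groups did not overlap, though the control libraries varied more (log2 fold change -0.32, SE 0.061, limma adjusted p = 0.0220). The adjusted p was 0.0217 to 0.0822 with 1 library left out, and the call was lost without HGC27-*FN1* 3′-UTR replicate 1 or 3 and without control replicate 1 or 2. It was also lost in the fit with no trend and with replicate number as a block (limma adjusted p = 0.0539 with the block). *DDR1* measured 2.81 ± 0.15 and 2.92 ± 0.223 RPKM, with overlapping groups (log2 fold change -0.05, 95% interval -0.23 to 0.13).

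Of the hyaluronan receptors, *CD44* was upregulated. It measured 3.99, 4.18 and 3.88 RPKM in HGC27-*FN1* 3′-UTR cells and 2.74, 3.10 and 3.09 RPKM in control cells, without overlap. The ratio of means was 1.35 (log2 fold change 0.42, SE 0.066, limma adjusted p = 0.0130). *HMMR*, which also acts at the mitotic spindle, measured 20.6, 20.1 and 19.2 RPKM against 20.2, 17.9 and 17.8 RPKM. Its groups overlapped (log2 fold change 0.10, limma adjusted p = 0.308). Of the thrombospondin receptors, *CD47* measured 5.17 ± 0.302 and 4.62 ± 0.215 RPKM (log2 fold change 0.16, limma adjusted p = 0.144). *CD36*, also a fatty acid transporter, was below the minimum, with 17, 22 and 32 reads in HGC27-*FN1* 3′-UTR libraries and 4, 1 and 8 in control libraries. Its levels were 0.103, 0.0891 and 0.108 RPKM against 0.0177, 0.00321 and 0.0214 RPKM, a ratio of 7.10 without overlap. When all genes were fitted without a minimum, its log2 fold change was 0.81 (limma adjusted p = 0.0265). *CD36* is also expressed by endothelium, and the 5 endothelial markers summed to 0.172 to 0.196 RPKM against 0.0421 to 0.107, nearly all of it *TEK* (56 and 28 reads, limma adjusted p = 0.105), with *PECAM1* at 0 and 4 of 5 below the minimum. The link to *CD36* was not tested.

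Genes that encode ligands of these receptors, or synthases of the ligand hyaluronan, were described in the same way. Of 32 ligand genes 27 were tested, and 17 were upregulated and 2 downregulated at a limma adjusted p under 0.05 (5.62% and 7.36% of all tested genes), with 9 meeting the criterion of log2 fold change above 1. Their median log2 fold change was 0.56. The upward count was 11 without HGC27-*FN1* 3′-UTR replicate 1 or 3 or without control replicate 2. *THBS1*, which encodes thrombospondin 1, a ligand of CD47 and CD36, measured 2.79 ± 0.119 and 0.415 ± 0.0277 RPKM (log2 fold change 2.49). The others with the largest rises were *TNC* (2.12), which encodes the integrin ligand tenascin C, *CDH1* (1.83), whose product E-cadherin binds the *ITGAE* chain, and *LAMB3* (1.79), a laminin chain. *CDH1* is also one of the epithelial markers that rose, and the part of those markers in the ligand counts was not tested. The 2 downregulated genes were *HAS2* (-0.84), which encodes a hyaluronan synthase, and *LAMA3* (-0.68), another laminin chain. *HAS2* had 26 and 94 reads, with 1 of 3 HGC27-*FN1* 3′-UTR libraries at the minimum (limma adjusted p = 0.0471). The downward count was 1 with any 1 library left out.

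Of 44 genes of the adhesion machinery, the cytoplasmic partners of integrins, 40 were tested. Of these, 14 were upregulated and 2 downregulated, beside the same 5.62% and 7.36% of all tested genes, and the median log2 fold change was 0.06. The upward count was 6 without control replicate 2, 7 without HGC27-*FN1* 3′-UTR replicate 1 or 3, and 9 without control replicate 1. The upregulated genes with the largest changes were *TNS4* (log2 fold change 3.28) and *TNS2* (0.49), both tensins, the docking protein gene *NEDD9* (2.23) and *PARVA* (0.66), which encodes a parvin. *TNS4* measured 1.44 ± 0.159 and 0.0582 ± 0.013 RPKM, on 479 and 26 reads. *TNS4* and the ligand gene *LAMB3* reached the minimum level in HGC27-*FN1* 3′-UTR libraries only, so their presence among the tested genes already required a difference. The downregulated genes were *FYN* (-0.81), a Src family kinase, and *GIT1* (-0.43), a scaffold of adhesion turnover. Each of these 6 passed the limma adjusted p of 0.05. The receptors share their libraries with both lists, so the 3 sets of values stand side by side without a test between them.

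**Figure D5:**
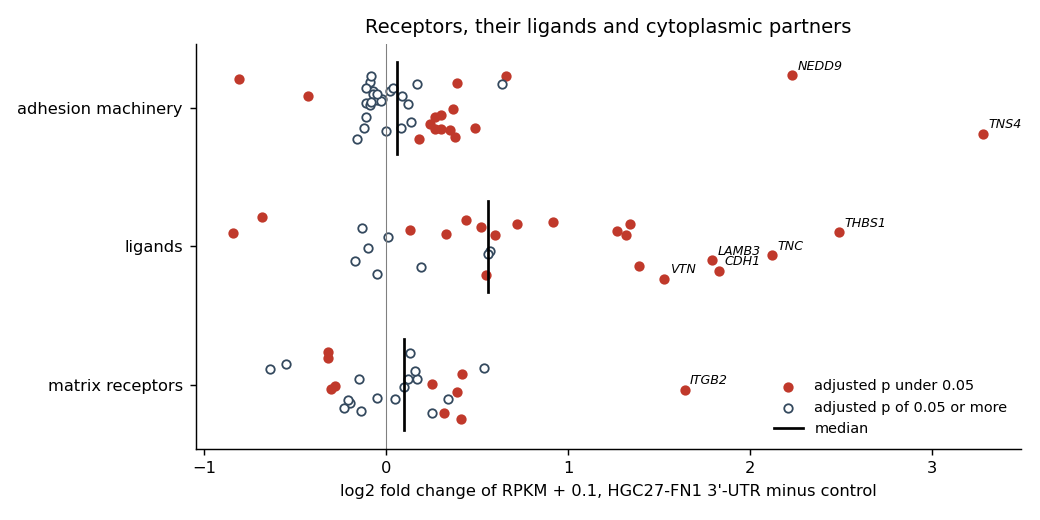
Log2 fold change of RPKM + 0.1 (HGC27-*FN1* 3′-UTR minus control) of each tested gene of 3 lists; filled points have a limma adjusted p under 0.05, and the vertical bar is the list median. The medians are 0.10 for receptors, 0.56 for ligands and 0.06 for adhesion machinery, and receptors other than *ITGB2* lie between -0.64 and 0.54.

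The study examined let-7i-5p as a microRNA linked to the *FN1* 3′-UTR, so the receptor 3′-UTRs were searched for the complement of its seed. The sequence is shown to make the search explicit, with the seed, bases 2 to 8, in capitals (RefSeq, GRCh38.p14, chr12:62603691-62603712, plus strand).
let-7i-5p: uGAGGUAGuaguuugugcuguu
The letters CTACCTC were sought on the transcript strand of the longest annotated 3′-UTR of each gene (GENCODE release 29). They occurred in 4 of 37 receptor genes (10.8%), namely *ITGA1*, *ITGA11*, *ITGB3* and *ITGB8*. The share among all 19550 protein-coding genes was 9.37%, and 9.97% of 8277 genes with a 3′-UTR in the middle range of length of the receptors. The 3′-UTRs of *ITGA1*, *ITGA11* and *ITGB8* (6759, 6526 and 5757 bases) are longer than that range. The 10.8% of all receptors is thus not matched to the 9.97% by length. The windows of the 3 genes that are also in the study's lists of predicted let-7i-5p targets are given 5′ to 3′ with the match in capitals. They lie in GRCh38 on the plus strand at chr5:52953991-52954017, chr17:47311257-47311283 and chr7:20411593-20411619.
*ITGA1*: cagagtcagcCTACCTCttgactctcc
*ITGB3*: tatttaccttCTACCTCttggctgcct
*ITGB8*: caatatcatgCTACCTCttgaatcttt
*ITGA7* and *ITGB6* are listed there too, without the 7 letters in the 3′-UTR searched. None of the 10 receptors that passed the test is in those lists or holds a match. Of the 3 genes shown, *ITGA1* and *ITGB3* did not pass, with log2 fold changes of 0.25 and -0.15, and *ITGB8* was below the minimum at 0.0789 ± 0.0214 and 0.0696 ± 0.00473 RPKM. A match describes letters and is not a measured site.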

How the data were processed

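RNA-seq of HGC27 cells was deposited as 1 RPKM table per library, 3 per group. The submitters' processing notes name Trimmomatic 0.36, STAR 2.5.3a, featureCounts and Subread 1.5.1, a trimmer, an aligner and a read counter with its package. The RPKM values deposited by the authors are per kilobase of the listed gene length and per 1000000 reads assigned to genes. Multiplying these back gave whole reads for 100% of values in every library (tolerance 0.1 reads). Genes with at least 0.1 RPKM in 3 or more of 6 libraries were tested on log2(RPKM + 0.1) with limma 3.58.1 (R 4.3.3, empirical Bayes with trend, two-sided, group as the only term), with Benjamini-Hochberg adjustment over all 23299 tested genes. Libraries of one group differed by more than sampling noise (chi-square per gene 2.665 to 6.185), so no 2 were treated as the same library. This does not show that they came from separate cultures. Subunit shares were tested with exact permutation tests (scipy 1.17.1). The fit was tested on simulated data.

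Values in every library are given for each receptor with an adjusted p under 0.05 and for the 6 with the highest mean. From the ligand and machinery lists up to 4 genes with the largest changes in each direction are named. Members and lists were chosen with earlier results of these data known. Alternatives were other pseudocounts, filters, scaling and models, a replicate block, and leaving out each library. Coordinates are GRCh38. Of the 37 receptors, 34 have the same gene span in GENCODE release 29.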

Additional observations from a re-analysis of the deposited data

How the results depend on the processing

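None of the 27 tested receptors changed direction in the 15 other fits, as far as each was tested there (18 of them in the fit limited to a mean of at least 1 RPKM). *ITGB1*, *ITGB2*, *ITGA4*, *CD44* and *SDC2* kept an adjusted p under 0.05 in each of them, with *ITGB2* not tested in the fit limited to a mean of at least 1 RPKM. The block with replicate number was fitted although the labels do not say that a number marks a shared culture. Correlations of same-numbered libraries were 0.0024, 0.0211 and 0.0103, and those of other numbers were -0.0195 to 0.0084. By these, 5 of 6 libraries correlated best with their own number. All values are near 0 and, as deviations from group means, tied to each other, so they do not show a pairing. With the replicate block, 5 receptors were higher and 0 lower by limma (6 lower at an unadjusted p under 0.05). The adjusted p was 0.0584 for *ITGA5*, 0.0695 for *ITGA6*, 0.0608 for *SDC3* and 0.0539 for *DDR2*. Voom without a block gave 6 lower. *ITGAV* was the upregulated receptor that did not pass with the replicate block (limma adjusted p = 0.0553). Adhesion machinery had 7 higher with this block, and ligands had 11 higher and 0 lower. *FN1* with this block had a log2 fold change of 0.52 (limma adjusted p = 0.0852). With 1 library left out, 0 to 3 receptors were lower and 6 were higher, machinery had 6 to 13 higher and ligands had 11 to 14 higher and 1 lower. *FN1* then had a log2 fold change of 0.46 to 0.55. Voom on recovered reads gave 11 receptors higher, adding *ITGA1*, *ITGA3*, *ITGB4*, *CD47* and *SDC4*, and added *ITGA2B* and *ITGAD* to the lower ones. Without a filter *FN1* had 0.52 (limma adjusted p = 0.0708). Ligands had 10 higher with a mean of at least 1 RPKM, where fewer genes were tested. Ligands had 1 lower with a pseudocount of 0.01, with no filter, with a mean of at least 1 RPKM and with at least 10 reads in every library. The count of receptors passing the 2-fold criterion upward was 0 with a pseudocount of 1 and 0 with a mean of at least 1 RPKM (limma; 10 and 8 higher at an unadjusted p under 0.05, and 1 passing by voom). Over all genes 3025 passed in the reported fit, 5108 by voom, 1162 with the block and 971 to 1880 with 1 library left out. Where a cause is not given, the cause was not tested. Genes with few reads, such as *ITGAD*, *ITGB3* and *CD36*, are limited by depth.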
